A study of Homo sapiens with 3 samples.

Results

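The tubulin isotypes described here are 10 genes, of which TUBA1A, TUBA1B, TUBA1C and TUBA4A encode alpha-tubulin and TUBB, TUBB2A, TUBB2B, TUBB3, TUBB4A and TUBB6 encode beta-tubulin. They were chosen by gene name, and 9 measured symbols hold them among the 25247 symbols of the deposited tables. The cells were OCI-AML2 R50, a culture of the established acute myeloid leukaemia (AML) line OCI-AML2 grown in 15% serum and 50 µM Ara-C (cytarabine), a nucleoside analogue, and both groups carried that drug. The compared group received romidepsin, a cyclic peptide drug that blocks class I histone deacetylases, for 18 h (2 libraries), and the other was labelled as control (1 library). The sources used here give neither the dose nor whether the romidepsin libraries stem from separate cultures. The p-values therefore reflect only how far these particular libraries differ, and that spread may be technical.

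Tubulins are the building blocks of microtubules. An alpha-tubulin and a beta-tubulin form a dimer, dimers join into hollow filaments, and the filaments form the mitotic spindle and the tracks for transport inside the cell. Vertebrates carry several genes for each kind, called isotypes, which differ most in the acidic tail at the end of the protein and in the tissues that use them. Some serve nearly every cell, while others are known mainly from neurons. Tubulin mRNA is also subject to autoregulation, in which an excess of free tubulin leads to decay of tubulin mRNA during its translation.

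Expression is in FPKM, mapped fragments scaled by transcript length and by sequencing depth, so levels can be compared between genes. The summed FPKM was 668773 and 657213 in the romidepsin libraries and 790922 in the control. If the lowest values of single-transcript genes stand for 1 fragment each, the romidepsin libraries held about 20700000 and 21000000 fragments. By the same estimate the control held 17800000 fragments. The 8 myeloid marker genes used to check the cell type (PTPRC, CD33, MPO, ELANE, CTSG, LYZ, ITGB2 and SPI1) were all above 1 FPKM in each library, with sums of 4096 and 4039 FPKM after romidepsin and 7398 FPKM in the control. LYZ alone held 2630 and 2596 FPKM of these sums after romidepsin and 4258 FPKM in the control. PTPRC and ITGB2 were called higher after romidepsin and the other 6 lower. By the same test, given below, 34.7% of all genes tested were higher and 41.8% lower. Of 11 neuronal markers, 5 (SYT1, SNAP25, NEFL, NEFM and GAP43) were listed at 0 in every library and SYP alone reached 1 FPKM. The neuronal markers summed to 1.97 and 2.34 FPKM after romidepsin and 0.678 FPKM in the control.

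The tables do not hold a separate row for each gene. Of the 10 genes, 7 have a row under their own name. TUBA1A and TUBA1B appear only in a joint row (TUBA1A/TUBA1B), and TUBB2A in a joint row with TUBB2B (TUBB2A/TUBB2B), which makes 9 measured symbols. TUBB has 9 rows, of which 7 were 0 in every library, and its rows were summed. In the order of the file, rows lie mostly in blocks of one strand. One TUBB row lies in a block of 17 neighbours on the minus strand and none on the plus strand by RefSeq, although TUBB itself is on the plus strand. That row held 5.55% and 5.28% of the TUBB value in the romidepsin libraries and 5.53% in the control. In the same way, the row named TUBB2B alone lies among 11 plus-strand neighbours and no minus-strand one, whereas TUBB2B is a minus-strand gene. The joint TUBB2A/TUBB2B row lies among 11 minus-strand neighbours. The sources used here do not give the strand setting of the libraries, so the row named TUBB2B alone is not a clean measure of TUBB2B mRNA.

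Sequence shared between copies limits how far single isotypes can be read. Each principal transcript in GENCODE 29 was divided into overlapping windows of 50 bases, and each window was looked up on both strands in the transcripts of all other genes. TUBA1A had 33.1% of its windows in TUBA1B and 31.2% in TUBA1C. TUBA1B had 87.1% of its windows in at least 1 other gene, pseudogenes included. TUBB2A shared 60.3% of its windows with TUBB2B. TUBB shared none with the other 9 genes, but 30.8% with other genes, among them AL662797.1 (18.7%) and the pseudogenes TUBBP1 (16.1%) and TUBBP2 (2.02%). TUBB4A had 5.63% of its windows in another of the 10 genes and 25.1% in any other gene. For another of the 10 genes this was 8.84% in TUBB3 and 0.993% in TUBB6. Of TUBB3, 89.4% of windows also occur in a gene named AC092143.1 in that annotation. The alpha-tubulins TUBA1A, TUBA1B and TUBA1C and the pair of TUBB2A and TUBB2B are therefore uncertain as single genes, while TUBB6 and TUBB4A have mostly their own sequence against the other isotypes.

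After romidepsin, the abundant isotypes TUBB and TUBB6 and the joint TUBA1A/TUBA1B row fell by less than 2-fold, TUBA1C and TUBA4A did not pass the test, and the scarce isotypes TUBB4A, TUBB3 and TUBB2A/TUBB2B rose by more than 2-fold. Of the 9 symbols, 4 were higher and 3 lower by limma at an adjusted p under 0.05, against 34.7% higher and 41.8% lower of the 11708 genes tested (76.5% in either direction). By a rule with no test, at least 2-fold on the log2(FPKM + 1) scale in both romidepsin libraries, 3 of 9 were higher and 0 lower, against 7.43% and 3.08% of all genes. The median log2 change of the 9 symbols was 0.02, beside -0.05 over all genes tested. A gene was tested if at least 1 library reached 1 FPKM. TUBB4A, TUBB3 and the row named TUBB2B were under 1 FPKM in the control and passed only through romidepsin libraries, so they had to be higher, and their direction adds nothing to these counts. Of the 870 genes tested with a control level below 1 FPKM, limma called 86.8% higher and none lower, and 40.7% met the 2-fold rule as higher. TUBB4A and TUBB3, which make up 2 of the 3 symbols past that rule, belong to this class. Of the 6 symbols at 1 FPKM or more in the control, 3 were lower and 1 higher. Among all 10838 genes tested at that control level, 45.2% were lower and 30.5% higher, so the share that fell was near that of such genes. The 2-fold rule was met as higher by 1 of the 6, against 4.76% of these genes. In bulk RNA, fewer cells that express a gene and less RNA per cell cannot be told apart.

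**Figure D1:**
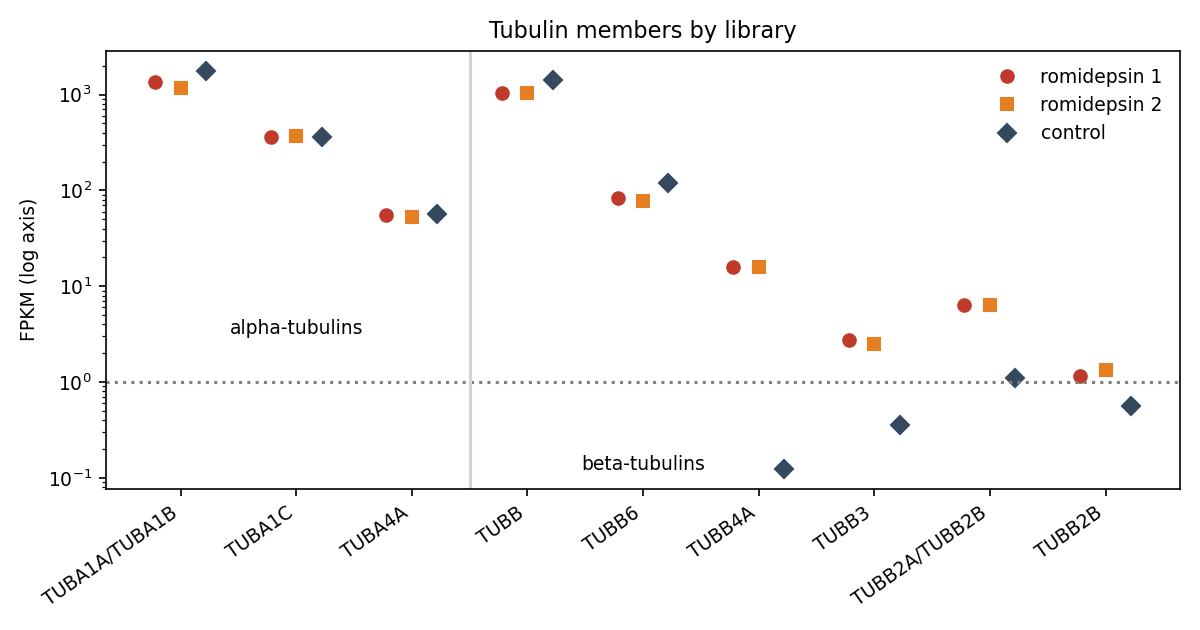
FPKM of each of the 9 measured tubulin symbols on a log axis, with 1 point for each of the 2 romidepsin libraries and the control; the dotted line is at 1 FPKM. TUBB4A lies at 15.7 and 15.8 FPKM after romidepsin and at 0.125 FPKM in the control, while the points of TUBA1C nearly coincide.

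The beta-tubulins that rose are described first. TUBB4A encodes class IV beta-tubulin of neurons and oligodendrocytes, and TUBB3 encodes class III beta-tubulin, the isotype detected by common neuronal antibodies. TUBB2A and TUBB2B encode class II beta-tubulins, abundant in brain. The RefSeq promoter windows of these genes (GRCh38.p14, 250 bases before to 50 after the start site, 5′ to 3′ on the gene's strand) are shown for the symbols that rose, with a window of TUBB, which fell, for comparison. TUBB2A and TUBB2B are both shown since they share the joint row. All 10 genes had a window. TUBB and TUBB3 have 2 windows each, of which the one nearer to the start of the GENCODE transcript is printed. The tables of this study use hg19, so these positions are those of RefSeq only. Capitals mark matches to 3 short motifs, searched on both strands, and where matches overlap the capitals run on. The first is the GC box, spelled GGGCGG on one strand and read as CCGCCC on the other. The next is the CCAAT box, which reads ATTGG on the opposite strand. The last is the TATA box, here the letters TATAAA, read as TTTATA on the opposite strand.
TUBB4A, the window farther from the gene body, chr19:6502799-6503098, minus strand: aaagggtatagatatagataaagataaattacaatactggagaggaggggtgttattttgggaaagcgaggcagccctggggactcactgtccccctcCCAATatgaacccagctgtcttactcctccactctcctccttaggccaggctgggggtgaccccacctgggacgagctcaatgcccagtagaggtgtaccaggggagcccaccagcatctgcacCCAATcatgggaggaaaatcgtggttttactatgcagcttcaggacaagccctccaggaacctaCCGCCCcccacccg
TUBB4A, the window nearer to the gene body, chr19:6502260-6502559, minus strand: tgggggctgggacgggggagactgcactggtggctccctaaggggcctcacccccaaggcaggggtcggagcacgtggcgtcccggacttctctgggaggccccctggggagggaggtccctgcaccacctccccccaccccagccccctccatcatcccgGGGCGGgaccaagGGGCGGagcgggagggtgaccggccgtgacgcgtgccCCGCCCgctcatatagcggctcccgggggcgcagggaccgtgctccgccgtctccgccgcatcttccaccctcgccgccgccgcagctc
TUBB3, chr16:89923092-89923391, plus strand: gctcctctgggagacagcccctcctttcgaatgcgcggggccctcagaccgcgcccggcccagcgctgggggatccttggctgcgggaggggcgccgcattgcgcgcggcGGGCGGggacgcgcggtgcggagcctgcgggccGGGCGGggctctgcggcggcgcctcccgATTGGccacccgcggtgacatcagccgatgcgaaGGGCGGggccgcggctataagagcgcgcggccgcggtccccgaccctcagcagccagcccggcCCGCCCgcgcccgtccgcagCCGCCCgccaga
TUBB2A, chr6:3157495-3157794, minus strand: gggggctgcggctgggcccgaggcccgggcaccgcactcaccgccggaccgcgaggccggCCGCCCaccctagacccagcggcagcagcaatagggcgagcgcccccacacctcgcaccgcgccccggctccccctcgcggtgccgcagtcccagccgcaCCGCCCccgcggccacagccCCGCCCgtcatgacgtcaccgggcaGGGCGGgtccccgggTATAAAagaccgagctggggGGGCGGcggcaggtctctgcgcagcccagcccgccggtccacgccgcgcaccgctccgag
TUBB2B, chr6:3227604-3227903, minus strand: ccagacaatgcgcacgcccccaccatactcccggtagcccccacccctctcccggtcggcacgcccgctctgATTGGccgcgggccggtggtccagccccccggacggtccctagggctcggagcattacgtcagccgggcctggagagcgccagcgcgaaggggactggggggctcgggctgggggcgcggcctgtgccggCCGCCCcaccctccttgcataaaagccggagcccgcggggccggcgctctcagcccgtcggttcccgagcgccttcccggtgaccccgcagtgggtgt
TUBB, chr6:30720102-30720401, plus strand: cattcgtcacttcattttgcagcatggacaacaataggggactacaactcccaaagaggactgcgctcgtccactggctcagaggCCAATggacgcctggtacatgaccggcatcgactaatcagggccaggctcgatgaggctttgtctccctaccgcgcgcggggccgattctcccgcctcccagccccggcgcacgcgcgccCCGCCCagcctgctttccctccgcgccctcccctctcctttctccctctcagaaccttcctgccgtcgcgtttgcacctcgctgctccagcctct
Over 35116 promoter windows of this length, 45.0% held at least 1 GC box, 34.6% a CCAAT box and 11.5% the TATAAA letters. TUBB3 and TUBB2A had 5 GC boxes each, the nearer TUBB4A window had 3 and the farther one 1, and TUBB2B and the printed TUBB window had 1 each. The windows not printed went the other way, with 6 GC boxes and no CCAAT box in TUBB (75.3% G and C, 43 CpG) and neither motif in TUBB3 (65.3% G and C, 9 CpG). Among the printed windows, CCAAT boxes were found in the farther TUBB4A window (2), TUBB3 (1), TUBB2B (1) and TUBB (1), and TUBB2A alone of these held TATAAA. The 2 windows of TUBB4A differ in base composition, with 75.0% G and C and 27 CpG in the nearer one and 54.7% and 5 CpG in the farther one, beside a median of 58.7% and 14 CpG over all windows. The tables do not say which start site was used. The letters do not separate the genes that rose from TUBB, and a match or its absence is only a description of these windows.

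TUBB4A was at 15.7 and 15.8 FPKM in the romidepsin libraries and at 0.125 FPKM in the control. Both romidepsin libraries were far above the control and differed from each other by 0.01 on the log2 scale. The mean of 15.8 ± 0.0828 FPKM (SD, n = 2) was 126-fold the control value, and the log2(FPKM + 1) difference was 3.90 with a standard error of 0.07 (limma adjusted p = 5.89e-08), rank 6 among 11708 genes ordered from the largest rise. The control value stands for about 6 fragments, for which counting error alone gives an exact Poisson 95% interval of 2.20 to 13.1 fragments and a fold between 57.9 and 344. The lower end of that range is itself above every other fold among the 9 symbols. Leaving out either romidepsin library left the log2 difference at 3.90 or 3.89, and the other scalings of the libraries gave 3.45 to 3.99.

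TUBB2A/TUBB2B was at 6.38 and 6.30 FPKM in the romidepsin libraries and at 1.11 FPKM in the control. Both romidepsin libraries were above the single control library, and the row was 5.70-fold higher after romidepsin (log2 1.80 ± 0.08, SE, limma adjusted p = 1.48e-06). Its control value corresponds to about 36 fragments (25.2 to 49.8), or a fold between 4.12 and 8.14. TUBB2A/TUBB2B was the one rising symbol past 1 FPKM in the control. The row named TUBB2B alone was at 1.15 and 1.32 FPKM after romidepsin and at 0.559 FPKM in the control. It was also higher (log2 0.52 ± 0.13, SE, limma adjusted p = 0.00824), but quantile normalization ended this call (log2 0.0026, adjusted p = 0.987). Because TUBB2A and TUBB2B share most of a TUBB2A transcript and lie in 1 row, the data do not say which of them rose.

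TUBB3 was at 2.75 and 2.51 FPKM in the romidepsin libraries and at 0.357 FPKM in the control. It was 7.38-fold higher (log2 1.42 ± 0.11, SE, limma adjusted p = 2.14e-05), and the control value stands for about 11 fragments, which gives a fold between 4.12 and 14.8. TUBB3 thus had a smaller fold than TUBB4A, and after romidepsin it remained below TUBB2A/TUBB2B in level. On the log2(FPKM + 1) scale the rise of TUBB3 was below that of TUBB2A/TUBB2B, whereas with a pseudocount of 0.1 it was above it (2.58 against 2.41), since this scale understates the change of low genes. With quantile normalization the difference of TUBB3 was 0.92 and called higher (limma adjusted p = 0.0032). TUBB3 was tested only through romidepsin libraries, and 86.8% of such genes were called higher as deposited, so this call adds little.

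The remaining beta-tubulins, TUBB and TUBB6, had the highest levels among the beta-tubulins chosen here. TUBB4B was not among those chosen and lay above TUBB6 in every library. It was at 366 and 360 FPKM after romidepsin and at 317 FPKM in the control. TUBB, class I beta-tubulin and the most widely used isotype, was at 1046 and 1041 FPKM in the romidepsin libraries and at 1405 FPKM in the control. Both romidepsin libraries were lower and lay within 0.01 of each other on the log2 scale, and the fall was 1.35-fold (log2 -0.43 ± 0.03, SE, limma adjusted p = 1.12e-05). Its main row and the row in the minus-strand block fell alike, to 0.744 and 0.727 of the control. TUBB6, class V beta-tubulin, was at 82.4 and 77.7 FPKM in the romidepsin libraries and at 120 FPKM in the control. Both romidepsin libraries were lower, at 0.665 of the control on average (log2 -0.58 ± 0.04, SE, limma adjusted p = 1.69e-05). Scaling the libraries to the same sum put the median of all genes at 0.16 instead of -0.05, and quantile normalization left it at -0.05. TUBB was -0.43 as deposited, -0.19 at equal sums and -0.16 after quantile normalization, and TUBB6 was -0.58, -0.34 and -0.34, each still called lower. Relative to the median of all genes, TUBB lay at -0.38 as deposited and -0.35 with the same sum, and TUBB6 at -0.53 and -0.50. With quantile normalization they lay at -0.11 and -0.29 from it.

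Among the alpha-tubulins, the joint row of TUBA1A, known from developing neurons, and TUBA1B, the common alpha-tubulin of dividing cells, had the highest level of the 9 symbols in every library. TUBA1A/TUBA1B was at 1361 and 1181 FPKM in the romidepsin libraries and at 1776 FPKM in the control. Both romidepsin libraries were below the single control library, but the romidepsin pair was 0.20 apart on the log2 scale, the widest gap among the 9 symbols. The row was 1.40-fold lower (log2 -0.49 ± 0.07, SE, limma adjusted p = 0.000606), and the call was lost with no filter on low values (adjusted p = 0.0808) and under quantile normalization (log2 -0.18, adjusted p = 0.155). Without romidepsin replicate 1 the difference was -0.59, and without romidepsin replicate 2 it was -0.38.

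TUBA1C, a close relative of TUBA1B, was at 362 and 369 FPKM in the romidepsin libraries and at 360 FPKM in the control. The difference of 0.02 ± 0.03 (log2, SE) did not pass the test (limma adjusted p = 0.590). It was called higher once libraries had the same sum (log2 0.26, adjusted p = 0.00053) or were quantile-normalized (log2 0.29, adjusted p = 0.00109), so whether TUBA1C changed depends on the scaling. TUBA4A, whose protein is made without the final tyrosine of other alpha-tubulins, was at 55.5 and 52.5 FPKM in the romidepsin libraries and at 57.3 FPKM in the control. Its difference of -0.08 ± 0.05 did not pass either (limma adjusted p = 0.129) and turned to 0.15, now called, with the same sum (adjusted p = 0.0210) and to 0.11 in the quantile-normalized values (adjusted p = 0.118). Relative to the median of all genes, TUBA1C lay at 0.07 and TUBA4A at -0.03 as deposited, and at 0.10 and -0.01 with the same sum. With quantile normalization they lay farther above it, at 0.34 and 0.15.

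**Figure D2:**
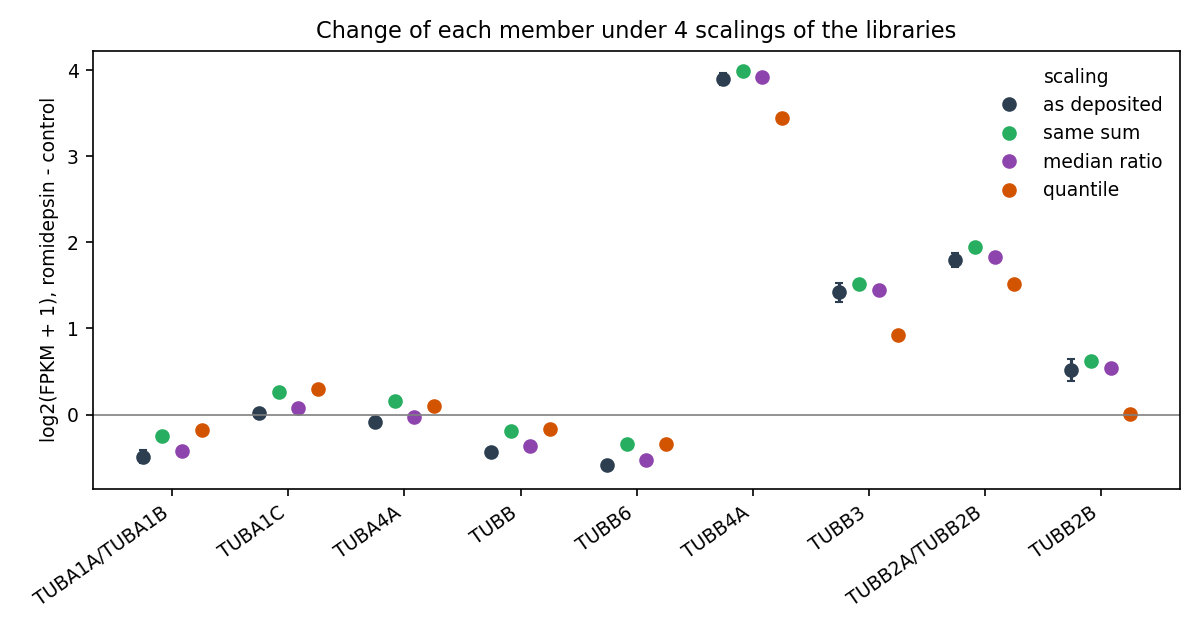
Difference of log2(FPKM + 1) between romidepsin (mean of 2 libraries) and control for each tubulin symbol, with the values as deposited and under 3 other scalings; bars are 1 limma standard error of the deposited values. TUBB4A stays between 3.45 and 3.99, TUBB and TUBB6 stay below 0, and TUBA4A lies on both sides of 0.

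Proportions within a library do not change when all its values are multiplied by 1 factor, as with the same sum. Quantile normalization can change them, and the shares here use the values as deposited. From the highest level down, TUBA1A/TUBA1B, TUBB, TUBA1C, TUBB6 and TUBA4A headed the order in all 3 libraries. TUBB4A was the lowest of the 9 symbols in the control and followed TUBA4A directly in both romidepsin libraries. The values of neighbouring symbols in this order did not overlap within the romidepsin pair, and the single control library gives no spread. Summed over the 6 beta-tubulin symbols, TUBB4A made up 1.36% and 1.38% in the romidepsin libraries and 0.00818% in the control. TUBB2A/TUBB2B made up 0.553% and 0.550% after romidepsin and 0.0728% in the control, and TUBB3 0.238% and 0.220% after romidepsin and 0.0234% in the control. Even after romidepsin, the 4 scarce symbols together made up 2.25% and 2.27% of the beta-tubulin sum, against 0.141% in the control, and TUBB made up 90.6% and 90.9%, against 92.0% in the control.

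TUBA1C made up a larger part of the alpha-tubulin sum in both romidepsin libraries than in the control. It was 20.3% and 23.0% in the romidepsin libraries and 16.4% in the control, while TUBA1A/TUBA1B was 76.5% and 73.7% after romidepsin and 81.0% in the control. TUBA4A was 3.12% and 3.27% after romidepsin and 2.61% in the control. In each case both romidepsin libraries lay on the same side of the control, and no test of these shares was made. The 3 alpha-tubulin symbols summed to 1778 and 1602 FPKM after romidepsin and 2194 FPKM in the control, and the 6 beta-tubulin symbols to 1155 and 1144 FPKM after romidepsin and 1527 FPKM in the control. The ratio of the alpha sum to the beta sum was 1.54 and 1.40 in the romidepsin libraries and 1.44 in the control, so the control lay between the romidepsin libraries. With every alpha- and beta-tubulin symbol of the tables counted, the ratio was 1.17 and 1.07 after romidepsin and 1.19 in the control.

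**Figure D3:**
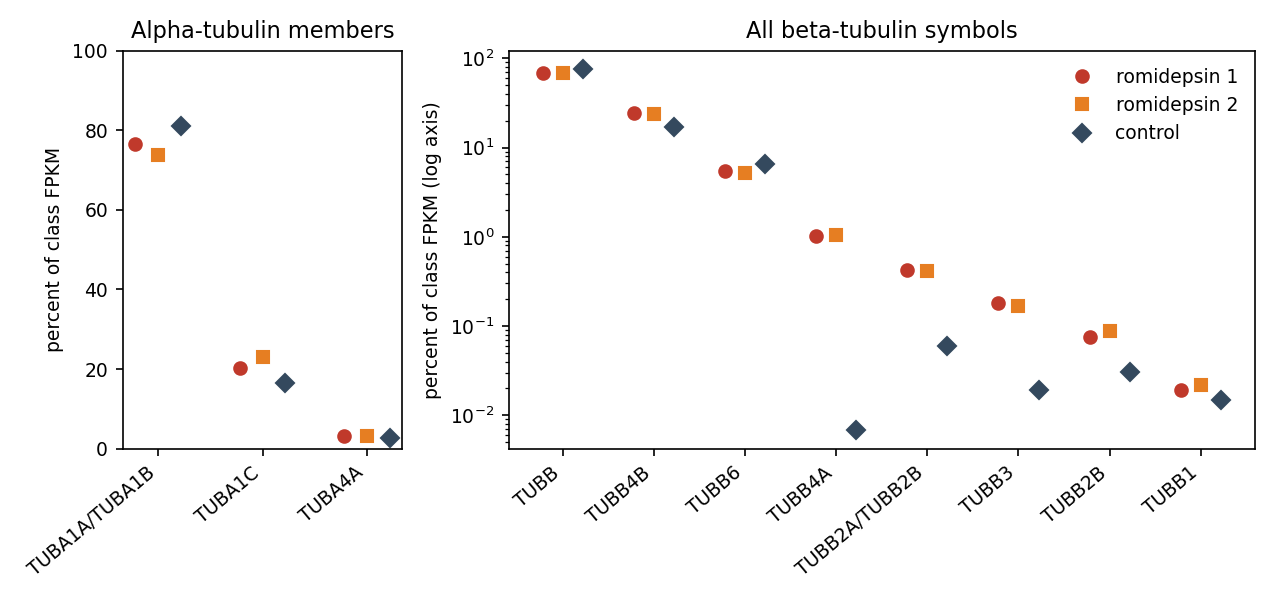
Percent of the summed class FPKM held by each isotype, for the alpha-tubulin members (left, linear axis) and for all beta-tubulin symbols of the tables (right, log axis; TUBB8 is left out as it is 0 in 2 libraries), with 1 point per library. TUBA1C and TUBB4B take larger shares in both romidepsin libraries than in the control, TUBB a smaller one, and TUBB4A is at 1.03% and 1.05% after romidepsin, against 0.00677% in the control.

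Other tubulin genes outside the 10 were measured too. TUBB4B, a beta-tubulin used by most tissues, was at 366 and 360 FPKM in the romidepsin libraries and at 317 FPKM in the control, a small rise (log2 0.20 ± 0.03, SE, limma adjusted p = 0.000865). It made up 24.1% and 23.9% of all beta-tubulin after romidepsin and 17.2% in the control. Counted this way, TUBB made up 68.8% and 69.1% after romidepsin and 76.2% in the control. Of 13 other tubulin genes, 5 reached 1 FPKM, and 2 of them rose and 2 fell, near the 34.7% higher and 41.8% lower of all genes. TUBG2, the lesser gamma-tubulin, which belongs to the complex that nucleates microtubules, rose (2.43 and 2.54 FPKM after romidepsin, 1.16 FPKM in the control). TUBE1, epsilon-tubulin of the centriole, fell to 6.62 and 6.86 FPKM after romidepsin, against 13.7 FPKM in the control. TUBG1, the main gamma-tubulin, was at 21.1 and 20.2 FPKM after romidepsin and 24.0 FPKM in the control, a fall that was not called with no filter or with quantile normalization and came to a log2 difference of 0.03 with the same sum. TUBD1, delta-tubulin, was at 3.92 and 4.43 FPKM after romidepsin and 4.92 FPKM in the control (limma adjusted p = 0.0788), and quantile normalization made it called lower (log2 -0.36, adjusted p = 0.0268). TUBB1, the beta-tubulin of platelets, was at 0.295 and 0.334 FPKM after romidepsin and 0.274 FPKM in the control, and TUBA8 was at 0.633 and 0.689 FPKM after romidepsin and 0.147 FPKM in the control. TUBAL3, TUBA3D and TUBB8 did not reach 1 FPKM in any library, and TUBA3C, TUBA3E and TUBA4B were listed at 0 throughout.

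The lists of related genes are read against all genes tested, of which 34.7% were higher and 41.8% lower as deposited, 48.7% higher and 26.2% lower at equal sums, and 31.7% higher and 37.5% lower after quantile normalization. Most genes that fold tubulin fell. Of 21 genes of the CCT chaperonin, prefoldin and the tubulin cofactors, 18 fell and 2 rose, where 41.8% of all genes were lower and 34.7% higher (median log2 -0.39, beside -0.05 over all genes). With the same sum 13 were lower and 4 higher, with quantile normalization 14 and 3, and none met the 2-fold rule. ARL2, among those that fell, is read in a joint row with SNX15. With only symbols in 1 row naming 1 gene, 16 were lower and 2 higher. CCT5, a subunit of the CCT ring in which tubulin folds, fell to 112 and 113 FPKM after romidepsin, against 195 FPKM in the control. CCT6A was at 173 and 175 FPKM after romidepsin and 271 FPKM in the control, and CCT2 at 211 and 216 FPKM after romidepsin and 333 FPKM in the control, and both fell. PFDN1, a prefoldin subunit, rose by 0.19 on the log2 scale and TBCEL, a cofactor-like protein, by 0.41, although quantile normalization ended the TBCEL call (adjusted p = 0.0601). The autoregulation genes did not move one way. TTC5, which recognises nascent tubulin on the ribosome, was at 11.6 and 11.4 FPKM after romidepsin and 13.7 FPKM in the control, and its call as lower (limma adjusted p = 0.00631) was lost with the same sum (log2 -0.007, adjusted p = 0.912). SCAPER, which links TTC5 to mRNA decay, rose (3.72 and 3.94 FPKM after romidepsin, 2.07 FPKM in the control), and CNOT11, a subunit of the CCR4-NOT deadenylase, was at 31.6 and 30.6 FPKM after romidepsin and 29.8 FPKM in the control (adjusted p = 0.261). CNOT11 was called higher with the same sum (log2 0.29, adjusted p = 0.00121) and after quantile normalization (log2 0.18, adjusted p = 0.0217).

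Among 29 genes for enzymes that modify tubulin, 19 were tested, of which 7 rose and 7 fell, shares near those of all genes (34.7% higher and 41.8% lower, median log2 0.01 beside -0.05). The counts were 11 higher and 3 lower with the same sum and 7 higher and 4 lower after quantile normalization. TTLL3, among those that fell, is read in a joint row with ARPC4, and NICN1, among those that rose, in one with AMT. These rows do not measure TTLL3 or NICN1 alone. With only symbols in 1 row naming 1 gene, 6 were higher and 6 lower. HDAC6, the main tubulin deacetylase, was at 7.35 and 6.79 FPKM after romidepsin and 7.03 FPKM in the control (limma adjusted p = 0.941), though called higher with the same sum (log2 0.22, adjusted p = 0.0318). ATAT1, the tubulin acetyltransferase, was at 5.67 and 7.45 FPKM after romidepsin and 6.11 FPKM in the control (limma adjusted p = 0.600), with the control between the romidepsin libraries. SIRT2, another tubulin deacetylase, rose by 0.16 on the log2 scale (22.07 and 22.04 FPKM after romidepsin, 19.6 FPKM in the control). The largest rises among the 19 were those of TTLL7 and TTLL1, polyglutamylases, and LRRC49, a subunit of the TTLL1 complex. That complex did not rise as a whole. Its subunits TPGS1 and TPGS2 were called lower as deposited (log2 -0.40 and -0.23). TTLL7 was at 2.59 and 2.35 FPKM after romidepsin and 0.462 FPKM in the control, TTLL1 at 7.95 and 9.01 FPKM after romidepsin and 3.75 FPKM in the control, and LRRC49 at 1.60 and 1.48 FPKM after romidepsin and 0.253 FPKM in the control. TTLL7 and LRRC49 passed the filter only through romidepsin libraries. TTLL12 fell to 38.3 and 37.3 FPKM after romidepsin, against 68.2 FPKM in the control, TTLL11 fell by 0.56 on the log2 scale, and SVBP, partner of the vasohibin tyrosine-removing enzymes, fell by 0.43, which was not called when every gene was tested (adjusted p = 0.0504).

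Of 18 nucleation genes, 12 fell and 1 rose, beside 41.8% lower and 34.7% higher of all genes (median log2 -0.21 beside -0.05). With the same sum 6 were lower and 5 higher, with quantile normalization 8 and 2, and with median-ratio scaling 7 and 3, where 37.6% of all genes were lower and 37.7% higher. HAUS7, an augmin subunit, fell to 13.6 and 13.2 FPKM after romidepsin, against 28.2 FPKM in the control. TUBGCP4, of the gamma-tubulin ring complex, fell by 0.80 and MZT2B, one of its small binding proteins, by 0.75 on the log2 scale. NEDD1, which recruits that complex, rose by 0.16, which was not called when every gene was tested (adjusted p = 0.0519). Of 26 tested genes for proteins that bind microtubules or set their dynamics, 14 rose and 5 fell, beside 34.7% higher and 41.8% lower of all genes (median log2 0.18 beside -0.05). The 2-fold rule was met as higher by 5 of the 26, against 7.43% of all genes, and 2 of the 26 were under 1 FPKM in the control. Those 2 were tested only through romidepsin libraries, and both are among the 14 that rose and the 5 past the rule. Of all genes tested under 1 FPKM in the control, 40.7% met the rule as higher. The calls came to 19 higher and 1 lower with the same sum and 15 higher and 3 lower after quantile normalization. CLIP2, a plus-end linker best known from brain, was at 13.4 and 13.0 FPKM after romidepsin and 2.53 FPKM in the control. MAPRE3, the end-binding protein EB3, was at 6.31 and 6.11 FPKM after romidepsin and 1.11 FPKM in the control. MAP7, which recruits kinesin, was at 3.93 and 3.25 FPKM after romidepsin and 0.327 FPKM in the control, so it was tested only through its higher libraries. STMN1, which binds free tubulin dimers and is read in a joint row with MIR3917, fell to 377 and 397 FPKM after romidepsin, against 537 FPKM in the control. MAP4, a microtubule-stabilising protein of most tissues, fell by 0.23 on the log2 scale, and equal sums ended the call (adjusted p = 0.924).

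**Figure D4:**
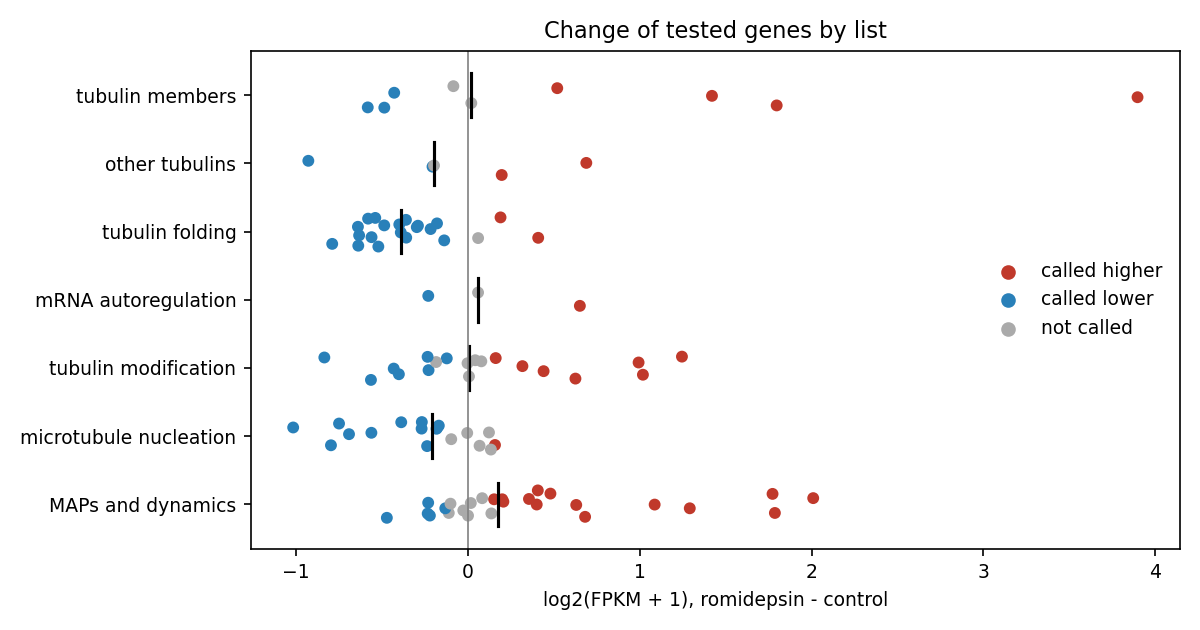
Difference of log2(FPKM + 1), romidepsin minus control, for each tested gene of the tubulin members and of 6 lists of related genes, values as deposited; colours give the limma call and black bars the median. The folding genes lie mostly below 0 with a median of -0.39, and the members range from -0.58 to 3.90.

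Some marker genes of other cell types were also higher after romidepsin. Of all genes tested under 1 FPKM in the control, 86.8% were called higher and 0% lower. At 1 FPKM or more in the control, 30.5% were called higher and 45.2% lower. Of 11 neuronal markers, 10 stayed under 1 FPKM in every library, and SYP, a synaptic vesicle protein, was at 1.5 and 1.82 FPKM after romidepsin and 0.559 FPKM in the control, so it too was tested only through romidepsin libraries. Of 5 fibroblast markers, COL1A2 and COL3A1 were at 0, while COL1A1, DCN and PDGFRB, all under 1 FPKM in the control and so tested only through romidepsin libraries, were called higher, with list sums of 7.61 and 7.33 FPKM after romidepsin and 0.608 FPKM in the control. Of 6 megakaryocyte and platelet markers, PF4 and PPBP were at 0. ITGA2B was at 3.16 and 3.14 FPKM after romidepsin and 0.501 FPKM in the control, GP9 at 10.4 and 12.1 FPKM after romidepsin and 8.05 FPKM in the control, and both were called higher, ITGA2B being tested only through romidepsin libraries. GP1BA, at 1.30 and 1.15 FPKM after romidepsin and 0.899 FPKM in the control, was not called (limma adjusted p = 0.137). TUBB1 stayed under 1 FPKM in every library. The sums of these 6 were 15.2 and 16.8 FPKM after romidepsin and 9.73 FPKM in the control. None of 5 epithelial and 5 multiciliated markers reached 1 FPKM. Their part in the rise of TUBB4A, TUBB3 and TUBB2A/TUBB2B was not tested.

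By Euclidean distance of the log2(FPKM + 1) values over the 3 libraries, the genes with the most similar levels to TUBB4A were ADAM28 (distance 0.43) and SERPINB9 (0.49). ADAM28 was at 14.9 and 16.1 FPKM after romidepsin and 0.514 FPKM in the control, and SERPINB9 at 18.1 and 17.5 FPKM after romidepsin and 0.516 FPKM in the control, so both had a higher control level than TUBB4A. Nearest to TUBB3 were PTP4A3 (0.04) and VWA5A (0.08), and nearest to TUBB2A/TUBB2B were MAPRE3 (0.04) and GPRIN1 (0.10). With 3 libraries, this measure describes only that the levels are alike.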

How the data were processed

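Gene expression was measured by RNA sequencing in 3 libraries of OCI-AML2 R50 cells, 2 treated with romidepsin and 1 control, and per the file headers the deposited values are FPKM. Per the submitters' processing notes, TopHat, Cufflinks, Cuffdiff and hg19 were used; their versions, settings, the annotation, and how reads of near-identical genes were divided are not given in the sources.

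The 1770 rows with no gene name (22.1% and 21.1% of the summed FPKM in the romidepsin libraries and 22.3% in the control) and 27 rows named by a number were left out. Rows of one symbol were summed and joint symbols kept. Genes with at least 1 FPKM in at least 1 library (11708) were compared as log2(FPKM + 1), which understates the change of low genes, with limma 3.58.1 in R 4.3.3 (eBayes with a mean-variance trend) and Benjamini-Hochberg adjustment over all of them at 0.05. The fit had 1 residual and 6.06 prior degrees of freedom, and the spread of the pair stood in for that of the single control. Fragment numbers are approximate. They come from FPKM times length for single-transcript genes in the lowest peak, between bounds set after the values were seen. The median within these bounds was taken as 1 fragment. Lengths are those of GENCODE 29, a different build from that of the files, and the intervals of the fragment numbers cover counting error only. Python 3.11.15, pandas 2.3.3, scipy 1.17.1 and matplotlib 3.10.9 were used for tables and plots.

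The members and lists were chosen with earlier results of these data known. Named were all 10 members, the other tubulins, TTC5, HDAC6, SIRT2 and ATAT1, up to 3 risers and 3 fallers of each list (1 of them is not reported here), and the 2 nearest genes of each member past the 2-fold rule. CNOT11, of a list with 3 genes, was named after its values were seen, as were SYP, ITGA2B, GP9 and the fibroblast markers. So were GP1BA, TTLL3, NICN1, ARL2, TPGS1 and TPGS2. Alternatives were other pseudocounts, filters, scalings, priors, symbol rules, leaving out each romidepsin library, and counting every alpha- or beta-tubulin symbol.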

Additional observations from a re-analysis of the deposited data

How the results depend on the processing

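With a single control library, the error of every comparison rests on the romidepsin pair, and a difference between cultures cannot be told apart from that of romidepsin. The control values of TUBB4A, TUBB3 and TUBB2A/TUBB2B rest on few fragments. No paired analysis was possible because the control is a single library. TUBB4A, TUBB3, TUBB2A/TUBB2B, TUBB and TUBB6 kept their direction and their call in every alternative with a test that includes them. The filter at a mean of 5 FPKM leaves out TUBB3, TUBB2A/TUBB2B and TUBB2B, and the restriction to symbols in 1 row naming 1 gene leaves out TUBB and both joint symbols. Leaving out either romidepsin library gives a value with no test, and each of the 9 symbols kept its direction there. TUBB4A, TUBB3 and the row named TUBB2B passed the filter at 1 FPKM only through romidepsin libraries. Wherever that filter applied, their kept direction therefore adds no support. As deposited, 86.8% of the 870 genes tested under 1 FPKM in the control were called higher, so their kept call adds little.

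The call of TUBA1A/TUBA1B was lost with no filter (-0.49) and with quantile normalization (-0.18), and that of TUBB2B with quantile normalization (0.0026). TUBA1C became called with the same sum (0.26) and with quantile normalization (0.29). TUBA4A turned to 0.15 and 0.11 under these 2 settings. Among other genes, TUBG1 turned to 0.0251 and TUBD1 to 0.000496 with the same sum, and HDAC6 to -0.0614 and ATAT1 to -0.0158 with quantile normalization. The causes were not tested.

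Over all genes, the same sum gave 3069 called lower instead of 4896 and 5705 instead of 4057 called higher, so 65.0% of calls were higher instead of 45.3%. The 2-fold rule gave 1308 higher and 543 lower with a pseudocount of 0.1, 463 higher with a mean of 5 FPKM, where fewer genes are tested, and 172 lower with the same sum, instead of 870 and 361. With a mean of 5 FPKM, 1 member was called higher and 1 met the 2-fold rule, where 31.4% of all genes were called higher. With symbols in 1 row, 1 member was called lower, where 41.8% of all genes were lower.

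These counts are read beside the shares of all genes tested. With no filter 23.3% were higher and 24.4% lower, and with a mean of 5 FPKM 31.4% and 49.1%. With the same sum the shares were 48.7% and 26.2%, with quantile normalization 31.7% and 37.5%, and with median-ratio scaling 37.7% and 37.6%. The filters also change how many genes of a list are tested. Of the other tubulins, 4 were higher and 1 lower with no filter, 1 was higher with a mean of 5 FPKM, and 1 was lower with the same sum. Of the folding genes, 1 was higher with a mean of 5 FPKM and 4 with the same sum. Of the autoregulation genes, 0 were higher with a mean of 5 FPKM, 2 higher and 0 lower with the same sum, and 2 higher with quantile normalization. Of the modification genes, 4 were higher with a mean of 5 FPKM, 11 higher and 3 lower with the same sum, 3 lower with no filter and 4 lower with quantile normalization. Of the nucleation genes, 0 were higher and 7 lower with no filter, 5 higher and 6 lower with the same sum, 2 higher with quantile normalization, and 3 higher and 7 lower with median-ratio scaling, which was chosen after seeing the data. Of the genes for microtubule-associated proteins and dynamics, 8 were higher with a mean of 5 FPKM, and lower were 2 with no filter, 1 with the same sum, 3 with quantile normalization and 3 with median-ratio scaling.

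The alpha-tubulin sum changed by -23.0% as deposited and by -8.94% with the same sum. The beta-tubulin sum changed by -24.7% as deposited, by -11.0% with the same sum and by -18.0% with every beta-tubulin symbol counted. With every symbol counted, the shares changed in percentage points by -7.20 for TUBB, -1.23 for TUBB6, 1.03 for TUBB4A, 0.155 for TUBB3, 0.359 for TUBB2A/TUBB2B and 0.0515 for TUBB2B, instead of -1.20, -0.915, 1.36, 0.206, 0.479 and 0.0711; their direction was the same.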
